A study of Nothobranchius furzeri with 3 samples.

Results

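Blood cell miRNAs, 7 features named after markers of red and white blood cells in vertebrates, were followed in skin of the turquoise killifish, Nothobranchius furzeri, a short-lived annual fish. They were picked by name, though with earlier results of these data known. nfu-mir-451 and nfu-mir-144 stand for erythroid cells, and nfu-mir-142, nfu-mir-223, nfu-mir-146, nfu-mir-150 and nfu-mir-155 for leukocytes. The prefix nfu, for the species, is left off below. All 7 were found among the 324 features of the deposited count table, and all 7 had a mean count of at least 100. The table holds small RNA reads from the skin of males of the strain MZM-04/10p aged 39 weeks, sequenced as 3 libraries with Illumina's TruSeq small RNA kit. The libraries form 1 group, numbered 1 to 3 in accession order, with no second age, tissue or treatment. No comparison between conditions is therefore possible, and library means are given as mean ± SD with n = 3. The titles of the samples differ in a code, and no label says outright that a code stands for 1 fish. The SDs below therefore measure only the spread between these libraries, part of which may be technical. The chi-square p-values below ask only whether these libraries differ by more than counting error, and hold no estimate of that spread.

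miRNAs are short RNAs that bind partly matching sites in messenger RNAs and lower their stability or translation. In vertebrates, miR-451 and miR-144 are cut from 1 primary transcript that GATA1 activates as red cells mature, and miR-451 is unusual in being processed by Argonaute 2 in place of Dicer. Fish red cells keep their nucleus in the circulation. miR-142 is made throughout the blood lineages, miR-223 is high in neutrophils and other myeloid cells, and miR-150 is high in resting mature lymphocytes. miR-155 and miR-146 rise in immune cells after inflammatory signals, miR-155 as a promoter of activation and miR-146 as a brake on it, and miR-146 is also made outside the blood lineages.

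The libraries held 5021238, 8545292 and 9590428 counts. A count of 0 would allow up to 3 counts, or 0.597, 0.351 and 0.313 counts per 1000000 (CPM), so every member lay well above the floor. Marker miRNAs of skin cell types were also read. All 3 epidermal features, mir-205, mir-203 and mir-8, were present in each library, together at 6.31%, 7.14% and 8.73% of counts in libraries 1, 2 and 3. With no other tissue to compare and no level set beforehand, their presence does not test the tissue label. The feature of endothelium, mir-126, held 0.487%, 0.415% and 0.312%. The 3 features of striated muscle together held 1.64%, 0.667% and 2.23%.

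The blood cell miRNAs were a minor part of the skin profile. Together they took 0.590% of counts in library 1 (95% exact binomial, Clopper-Pearson, interval 0.583 to 0.596), 0.727% in library 2 (0.722 to 0.733) and 0.511% in library 3 (0.507 to 0.516). Leukocyte features outweighed erythroid features in all 3 libraries. The leukocyte features had 4.21, 2.22 and 9.04 times the counts of the erythroid ones in the libraries in turn, with a mean log2 ratio of 2.13 ± 1.01 (SD, n = 3). These sums set 5 features against 2. mir-146, which is also made outside the blood lineages, held 64.9%, 31.0% and 62.9% of the leukocyte counts. It thus weighs most on the size of the ratio in libraries 1 and 3. The direction does not need mir-146. mir-142 alone had 6279, 20465 and 11222 counts, against 5685, 19291 and 4883 for the erythroid features. But mir-142 is made throughout the blood lineages, so its counts need not come from leukocytes alone. Without mir-146 and mir-142, the other leukocyte features together fell below the erythroid ones in libraries 1 and 2. In library 3 they stayed above them. With 3 libraries the smallest two-sided p of an exact sign-flip test is 0.25, so no ratio of this kind can pass 0.05. Fewer cells of a type and less RNA per cell cannot be told apart in RNA from whole tissue. Ratios between different miRNAs also carry the ligation bias of the library kit.

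**Figure D1:**
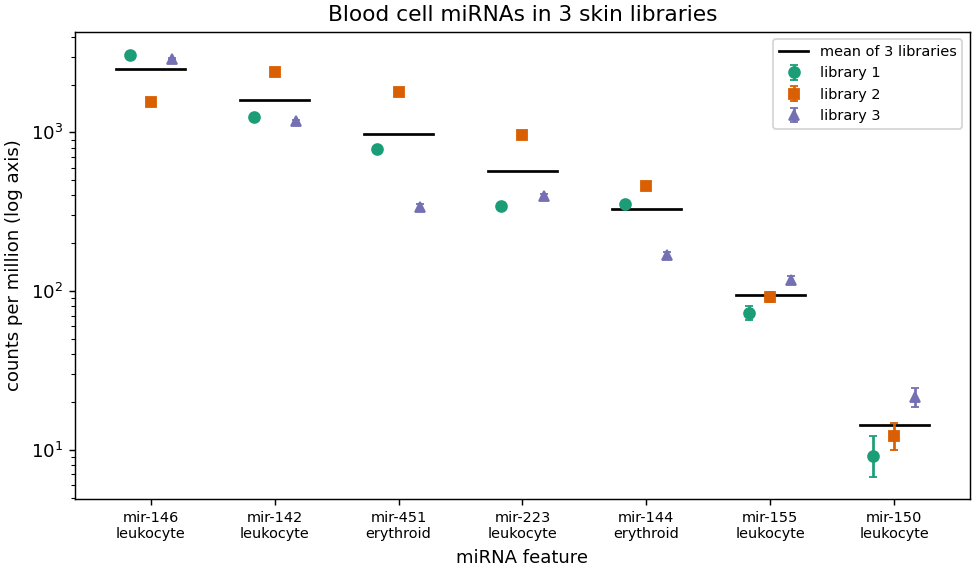
Level of each blood cell miRNA in counts per 1000000 on a log axis, with 1 point per library, its 95% exact binomial interval (counting error only) and a bar at the mean of the 3 libraries. Library 2 is highest for mir-451, mir-144, mir-142 and mir-223 and lowest for mir-146, while mir-155 and mir-150 are highest in library 3.

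Of the erythroid pair, mir-451 had 780, 1798 and 340 CPM in libraries 1, 2 and 3, from 3915, 15364 and 3262 counts. Library 2 was thus far above the others, and library 3 the lowest. Its rank among the 324 features was 42, 35 and 58. The mean was 973 ± 748 CPM (SD, n = 3), a coefficient of variation of 76.9% where counting error alone gives 1.45%, and without library 2 it was 560 CPM. Among the 115 features that averaged at least 100 counts, 7 varied more by this measure, and the median was 35.0%.

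The other erythroid feature, mir-144, had 353, 460 and 169 CPM, from 1770, 3927 and 1621 counts. Whether it shares a transcript with mir-451 in killifish was not checked. The order of libraries was the same as for mir-451, but the range was narrower: library 2 exceeded library 3 by 2.72-fold (95% counting interval 2.57 to 2.88) for mir-144 and by 5.29-fold (5.09 to 5.49) for mir-451. Between libraries 2 and 1 the fold was 1.30 (1.23 to 1.38) for mir-144 and 2.31 (2.23 to 2.39) for mir-451. mir-451 exceeded mir-144 in all 3 libraries. It had 2.21 times the counts of mir-144 in library 1 (2.09 to 2.34), 3.91 times in library 2 (3.78 to 4.05) and 2.01 times in library 3 (1.90 to 2.14), a mean log2 ratio of 1.37 ± 0.52. The excess of mir-451 was therefore similar in libraries 1 and 3 and clearly larger in library 2, beyond counting error. The pair as a whole took 0.113%, 0.226% and 0.0509% of the libraries, on average 0.130% ± 0.0886, and 0.0821% without library 2.

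Among leukocyte features, the broad blood lineage marker mir-142 had 1250, 2395 and 1170 CPM in libraries 1, 2 and 3, from 6279, 20465 and 11222 counts. With library totals, libraries 1 and 3 lay within 1.07-fold of each other (1.04 to 1.10). Library 2 exceeded them by 1.92-fold (1.86 to 1.97) and 2.05-fold, respectively. The mean was 1605 ± 685 CPM.

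The myeloid mir-223 had 341, 965 and 397 CPM, from 1713, 8245 and 3811 counts. Library 2 again stood above both others, by 2.83-fold over library 1 (2.68 to 2.98) and 2.43-fold over library 3 (2.34 to 2.52). The mean was 568 ± 345 CPM, and 369 CPM without library 2. mir-223 had 0.273 (0.258 to 0.288), 0.403 (0.393 to 0.413) and 0.340 (0.327 to 0.352) times the counts of mir-142, a mean log2 ratio of -1.58 ± 0.28. The myeloid feature was thus below the broad one in all 3 libraries, by a factor that differed between them beyond counting error.

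mir-146, the feature of the inflammatory brake, ran the other way. It had 3089, 1554 and 2894 CPM, from 15513, 13277 and 27757 counts, and was lowest in library 2. Library 1 exceeded library 2 by 1.99-fold (1.94 to 2.04) and library 3 exceeded library 2 by 1.86-fold (1.82 to 1.90). mir-146 was the most abundant member in libraries 1 and 3, at rank 26 and 30 of all features, but stood behind mir-142 and mir-451 in library 2, at rank 39.

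The rarer leukocyte features were highest in library 3. The activation miRNA mir-155 had 72.7, 91.6 and 118 CPM, from 365, 783 and 1132 counts, with a mean of 94.1 ± 22.8 CPM. It was the steadiest member, with a coefficient of variation of 24.2%, of which counting error alone gives 4.04%. The lymphocyte miRNA mir-150 had 9.16, 12.2 and 21.5 CPM, from 46, 104 and 206 counts, with a mean of 14.3 ± 6.42 CPM. Counting error alone gives it a coefficient of variation of 11.0%, against 45.0% observed, so it is the least precisely measured of the 7. Its levels in libraries 1 and 2 had overlapping 95% intervals (6.71 to 12.2 and 9.94 to 14.7 CPM), and no difference between them was detectable at this depth. mir-155 had 7.93, 7.53 and 5.50 times the counts of mir-150.

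The order of mean levels was mir-146, mir-142, mir-451, mir-223, mir-144, mir-155 and mir-150. The neighbours mir-146 and mir-142, mir-451 and mir-223, and mir-223 and mir-144 each changed places in 1 of the 3 libraries. The last of these lay within counting error, with mir-144 at 1.03 times the counts of mir-223 in library 1 (0.966 to 1.10). mir-142 was above mir-451 in 3 of 3 libraries. mir-451 had 0.624, 0.751 and 0.291 times the counts of mir-142 in libraries 1, 2 and 3, each with a counting interval below 1. The means of mir-142 and mir-451 differed by 633 CPM, less than the SD of either. That yardstick sets aside that both were measured in the same libraries. The order of mir-144 over mir-155 and of mir-155 over mir-150 held in 3 of 3 libraries, with differences of the means of 233 and 79.8 CPM that exceeded the SDs of both miRNAs.

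The leukocyte total hid a change of make-up. The 5 leukocyte features together took 0.476%, 0.502% and 0.460% of libraries 1, 2 and 3, a mean of 0.479% ± 0.0210. The range was 1.09-fold with library totals, and wider on the other scales taken up below. Within that total, mir-146 made up 64.9% (95% exact interval 64.3 to 65.5), 31.0% (30.5 to 31.4) and 62.9% (62.4 to 63.4). mir-142 made up 26.3% (25.7 to 26.8), 47.7% (47.3 to 48.2) and 25.4% (25.0 to 25.8), and mir-223 made up 7.16%, 19.2% and 8.64%. The share of mir-146 was thus lowest, and those of mir-142 and mir-223 highest, in library 2. mir-155 held 1.53%, 1.83% and 2.57% of the leukocyte counts, and mir-150 held 0.192%, 0.243% and 0.467%.

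The ratio of mir-142 to mir-146 showed this most plainly. It was 0.405 in library 1 (95% counting interval 0.393 to 0.417) and 0.404 in library 3 (0.395 to 0.413), but 1.54 in library 2 (1.51 to 1.58). Libraries 1 and 3 agreed within counting error although their depths differed, and library 2 lay on the other side of 1. The mean log2 ratio was -0.66 ± 1.11, and -1.31 without library 2. The ratio of erythroid to leukocyte counts, mir-146 included, did not follow that grouping. It was 0.238 in library 1, 0.450 in library 2 and 0.111 in library 3, each outside the counting intervals of the others. Its rise from library 1 to library 2 was not shared by all single ratios. mir-451 to mir-142 was 0.624, 0.751 and 0.291 in libraries 1, 2 and 3, and mir-144 to mir-142 was 0.282, 0.192 and 0.144. Against mir-223, mir-451 stood at 2.29, 1.86 and 0.856 and mir-144 at 1.03, 0.476 and 0.425. Library 3 was lowest in all of these.

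**Figure D2:**
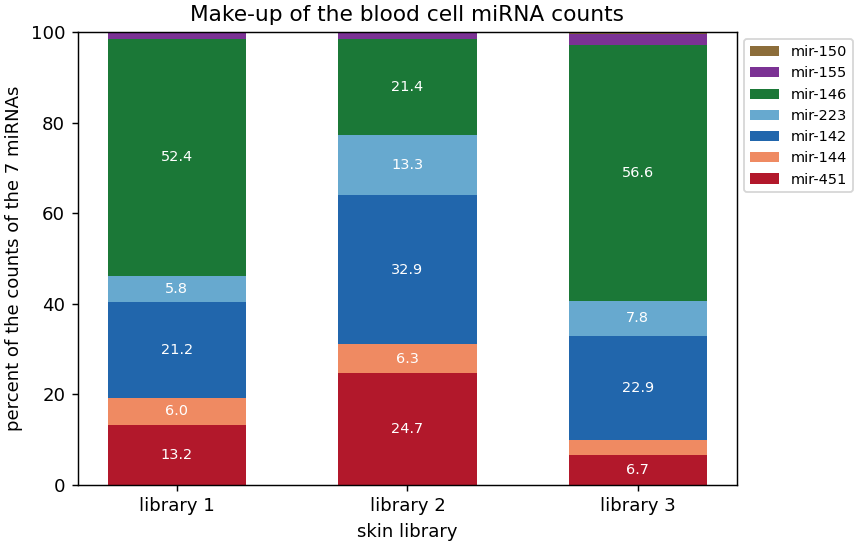
Make-up of the summed counts of the 7 blood cell miRNAs in each skin library, in percent, with 1 stacked bar per library and the value printed on segments above 5%. mir-146 fills 52.4%, 21.4% and 56.6% of libraries 1, 2 and 3, and the erythroid pair at the base fills 19.2%, 31.0% and 9.96%.

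Whether libraries differed by more than counting error was tested with a chi-square test of each feature's counts against library totals, over the 158 features that averaged at least 10 counts and with Benjamini-Hochberg adjustment. All 7 members passed an adjusted p of 0.05, the largest adjusted p among them being 1.46e-09 for mir-150. This share is to be read against 81.6% of all features tested that passed. With a minimum mean count of 100, which all 7 members reached, 112 of 115 features passed. Passing therefore sets the members little apart. The test compares these libraries only, with no condition behind them.

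Taken by pairs of libraries with the same test, 5 members were higher in library 2 than in library 1 (44.0% of features tested), namely mir-451, mir-144, mir-142, mir-223 and mir-155. One member, mir-146, was lower (25.8% of features), and mir-150 did not pass at 1.33-fold (0.930 to 1.92, adjusted p = 0.138). Between libraries 3 and 1, mir-223, mir-150 and mir-155 were higher in library 3 (48.1% of features) and 4 members were lower (21.2%). Between libraries 3 and 2, mir-146, mir-150 and mir-155 were higher in library 3 (38.3% of features) and the 4 members mir-451, mir-144, mir-142 and mir-223 were lower (37.7%).

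The scale used matters for the small differences. With library totals, the median of the 115 features that averaged at least 100 counts was 0.21 higher on the log2 scale in library 2 than in library 1, and 0.32 higher in library 3 than in library 1. With DESeq2 size factors these medians were -0.02 and 0.06. On the latter scale mir-155 was 1.07-fold higher in library 2 than in library 1 and no longer passed (adjusted p = 0.336). The excess of mir-223 in library 3 over library 1 was 1.16-fold with library totals, 1.02-fold after TMM scaling (adjusted p = 0.563) and turned to 0.971-fold with DESeq2 size factors (adjusted p = 0.360). The other calls between pairs of libraries kept their direction and passed on all 3 scales, but their size could change. mir-142 in library 3 was 0.936-fold of library 1 with library totals, 0.819-fold after TMM scaling and 0.780-fold with DESeq2 size factors. For mir-146 these values were 0.937, 0.820 and 0.781.

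After TMM scaling, which sets libraries to a trimmed mean of their ratios, 4 members were highest in library 2 (41.7% of the 115 features), 2 in library 3 (33.9%) and 1 in library 1 (24.3%). mir-451 and mir-223 were over 2-fold above both other libraries in library 2, a pattern that 9.57% of the 115 features showed. With DESeq2 size factors mir-451 was 1.96-fold higher in library 2 than in library 1, just under that line. The highest library exceeded the lowest by over 2-fold for 6 of the 7 members, against 46.1% of the 115 features. mir-155, at 1.42-fold, was the exception, and mir-150 and mir-146 lay close to the line at 2.05-fold and 2.10-fold. The median range of the members was 2.22-fold and that of all 115 features 1.92-fold. With library totals mir-146 fell below 2-fold, and with DESeq2 size factors mir-150 did, which left 5 members in either case. Without library 2, 3 members had a range over 2-fold, against 20 of 115 features. Without library 3 it was 3 members against 36 of 111 features, and without library 1 it was 4 members against 30 of 118.

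**Figure D3:**
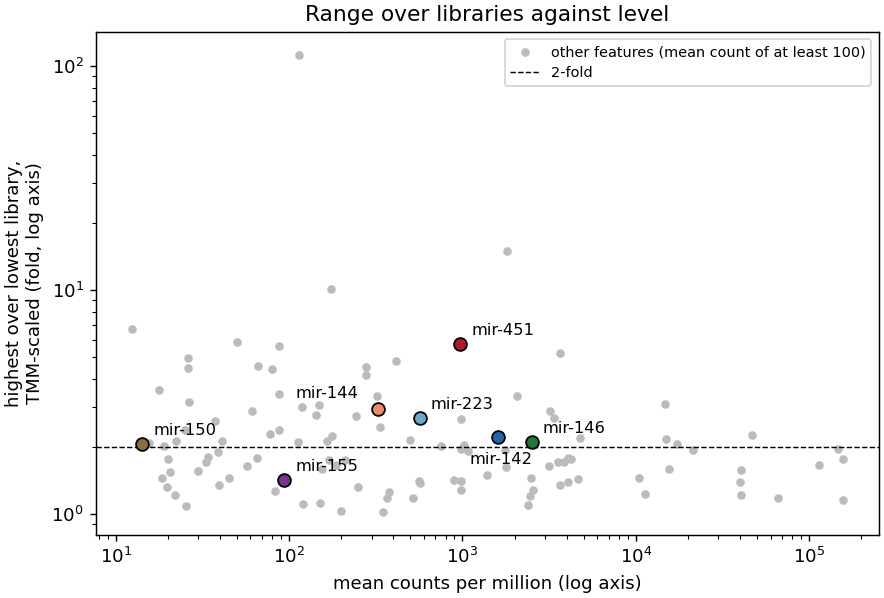
Range over libraries (highest over lowest library after TMM scaling, log axis) against mean level in counts per 1000000 (log axis), with 1 point for each of the 115 features that averaged at least 100 counts and the blood cell miRNAs in colour. mir-451 at 5.72-fold lies well above the dashed 2-fold line, mir-144 at 2.94-fold and mir-223 at 2.68-fold lie above it, and mir-155 at 1.42-fold lies below.

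Which members changed together was described by the SD over the 3 libraries of the log2 ratio of 2 miRNAs, which needs no scaling and is small where 2 features keep a steady ratio. Over the 21 pairs of members the median SD was 0.85, and over all 6555 pairs of the 115 features it was 0.72. As a whole the blood cell miRNAs therefore kept no steadier ratios than features at large. The steadiest pairs were mir-142 with mir-223, at 0.28, and mir-150 with mir-155, at 0.29. For mir-150 with mir-155 counting error alone gives 0.17. The next were mir-144 with mir-142, at 0.48, and the erythroid pair, mir-451 with mir-144, at 0.52. Over all 3 libraries the erythroid miRNAs were thus no steadier towards each other than mir-144 was towards the leukocyte mir-142. This depends on library 2. In libraries 1 and 3 mir-451 had 2.21 and 2.01 times the counts of mir-144, while mir-144 had 0.282 and 0.144 times those of mir-142.

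The widest pairs joined mir-451 to the leukocyte features that peaked elsewhere, with an SD of 1.68 for mir-451 with mir-146, 1.68 for mir-451 with mir-150 and 1.42 for mir-451 with mir-155. mir-146 had 3.96 times the counts of mir-451 in library 1, 0.864 times in library 2 and 8.51 times in library 3. Within the leukocyte list, mir-223 with mir-146 was the widest pair, at 1.36. The division by pattern did not follow the division into erythroid and leukocyte features: the 6 pairs among mir-451, mir-144, mir-142 and mir-223 had SDs of 0.28 to 0.75, the 3 pairs among mir-146, mir-150 and mir-155 had 0.29 to 0.79, and the 12 pairs across these sets had 0.70 to 1.68. The median SD was 0.61 among the 6 pairs, 0.67 among the 3 and 1.15 among the 12, against 0.72 for all 6555 pairs of features. Ratios within a set were thus only a little steadier than those of features at large. These sets were formed after the values were seen and are a description of 3 libraries only.

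**Figure D4:**
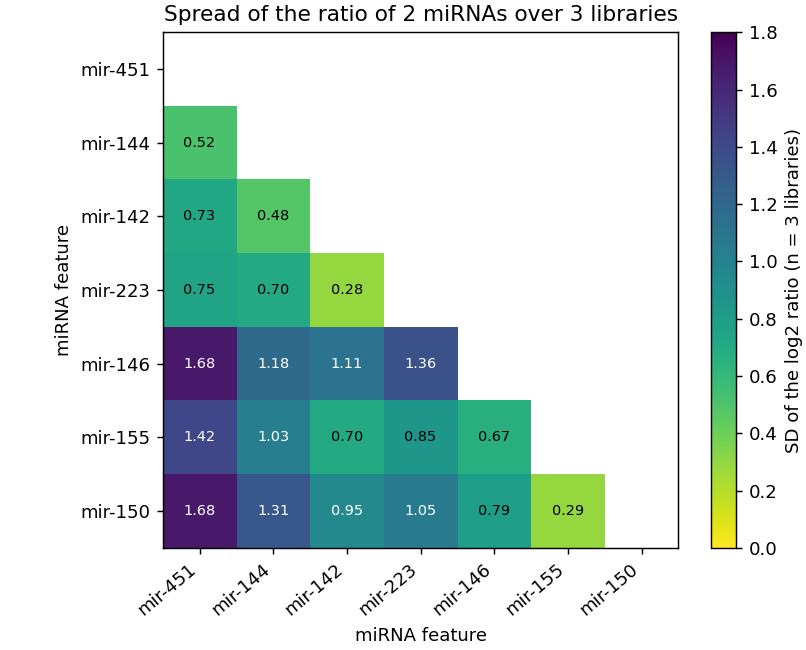
Spread of the ratio of each pair of blood cell miRNAs, as the SD over 3 libraries of the log2 ratio, printed in each cell and shown by colour. The cells for mir-142 with mir-223 (0.28) and mir-150 with mir-155 (0.29) are lightest, and those for mir-451 with mir-146 and with mir-150 (both 1.68) are darkest.

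**Figure D5:**
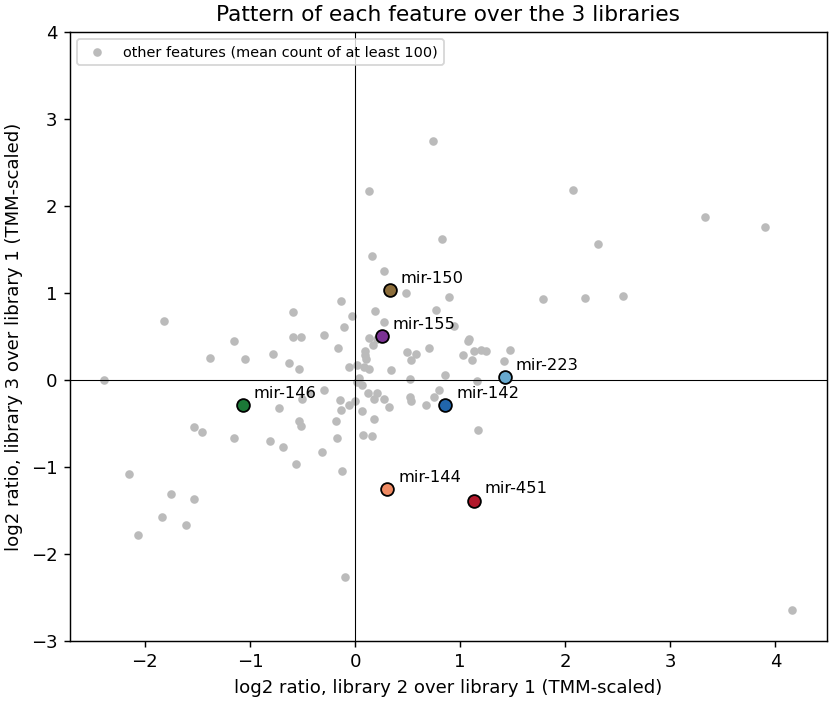
Pattern over libraries of the 115 features that averaged at least 100 counts, as the log2 ratio of library 2 over library 1 (x axis) and of library 3 over library 1 (y axis) after TMM scaling, with the blood cell miRNAs labelled. mir-451 and mir-144 lie low, where library 3 is below library 1, mir-223 and mir-142 lie to the right near the horizontal line, mir-146 lies to the left, and mir-150 and mir-155 lie above.

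Markers of other skin cell types were set beside the blood cell miRNAs. The endothelial mir-126 was highest in library 1, at 4874, 4146 and 3123 CPM, and exceeded the erythroid pair by 4.30-fold, 1.84-fold and 6.13-fold in libraries 1, 2 and 3. Leukocyte features had 0.977, 1.21 and 1.47 times the counts of mir-126. The epidermal features mir-205, mir-203 and mir-8 were highest in library 3 after TMM scaling, as were mir-155 and mir-150. mir-155 kept a nearly steady ratio to mir-8 (SD of the log2 ratio 0.02) and to mir-205 (0.13). mir-8 was also its nearest feature in the search described below, so that SD is the smallest of many. mir-203 had another order of libraries. With TMM scaling it had 2887, 2829 and 4813 CPM, lowest in library 2. On that scale mir-155 had 77.3, 92.4 and 110 CPM, lowest in library 1. mir-184, another epithelial feature, named after its values were seen, was highest in library 1, with TMM-scaled log2 ratios to library 1 of -1.54 in library 2 and -0.55 in library 3. The 3 muscle features, mir-1, mir-133 and mir-499, were all lowest in library 2, as was mir-146, and highest in library 3. mir-133 had 15881, 6436 and 21682 CPM. The high mir-451, mir-142 and mir-223 of library 2 thus came with the lowest muscle share, 0.667%, and the part of tissue make-up in these differences was not tested.

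The nearest features to each member among the 115 were found by the same SD of the log2 ratio. For mir-142 the nearest were the predicted feature pred_717 (0.02), mir-455 (0.10) and pred_580 (0.11). pred_717 had 390, 734 and 370 CPM, and its distance from mir-142 was below the 0.03 that counting error gives. For mir-223 they were mir-19 (0.11), let-7 (0.14) and mir-365 (0.17). For mir-451 they were pred_484 (0.46), its partner mir-144 (0.52) and mir-299 (0.63), so no abundant feature shared the pattern of mir-451 closely. For mir-144 they were mir-217 (0.32), mir-204 (0.39) and mir-148 (0.44). For mir-146 they were mir-183 (0.20), mir-375 (0.21) and mir-181 (0.21). For mir-155 they were mir-8 (0.02), the fly name of the miR-200 family, then mir-210 (0.06) and mir-22 (0.06), where counting error gives 0.06, 0.07 and 0.06. For mir-150 they were mir-1388 (0.10), mir-301 (0.12) and mir-46 (0.14), all within its counting error of 0.16 to 0.17. With 3 libraries and 114 candidates for each member, close patterns are easily found, and they describe these libraries only.

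Other miRNAs with known roles in blood or immune cells were followed by 2 lists. Of 9 names linked to red cell formation, 6 were in the table, all with a mean count of at least 100: mir-15, mir-16, mir-24, mir-103, mir-210 and mir-221. All 6 passed the chi-square test, as did 81.6% of all features tested and 112 of 115 with a minimum mean count of 100. A TMM-scaled range over 2-fold was found in 0 of them, against 46.1% of the 115 features, and their median range was 1.30-fold. mir-16 had 2359, 2870 and 2434 CPM, and mir-221, which restrains the stem cell factor receptor KIT in mammalian red cell precursors, had 2543, 2494 and 4420 CPM. mir-16 was highest in library 2, like mir-451, and mir-221 in library 3. mir-103 was among the steadiest features, with a range of 1.02-fold after TMM scaling.

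Of 22 names linked to immune cells, 15 were matched directly and mir-132b by its number, and 14 of these 16 features had a mean count of at least 100. Of the 15 tested, 12 passed the chi-square test, where 81.6% of all features passed. After TMM scaling 8 of the 14 were highest in library 2 (41.7% of the 115 features), and 3 had a range over 2-fold (46.1%). The 3 were mir-17 (675, 1456 and 939 CPM), mir-19 (575, 1614 and 764 CPM) and mir-425 (1921, 2270 and 5887 CPM). mir-17 and mir-19, members of the miR-17-92 clusters that promote proliferation of lymphoid cells in mammals, were highest in library 2 like mir-142 and mir-223. mir-92, of the same clusters, was highest in library 3, at 11350, 14500 and 20582 CPM. mir-21, raised in many inflamed tissues, had 40783, 29813 and 50960 CPM, and mir-181, which tunes T cell receptor signalling in mammals, had 133148, 84854 and 121670 CPM, both lowest in library 2 like mir-146. mir-27 and mir-23 differed little, with ranges of 1.22-fold and 1.21-fold. mir-29, mir-92 and lin-4, the name that stands for miR-125, had ranges of 1.92-fold, 1.59-fold and 1.44-fold. The least abundant of the 14 were mir-9, mir-132, mir-132b and mir-34, at mean levels of 57.4, 39.6, 19.8 and 18.5 CPM. mir-187 had 30, 34 and 44 counts, and mir-147, a miRNA induced in mammalian macrophages, had 0, 0 and 1 count. Most of these miRNAs are made by many skin cell types, so their levels need not measure blood cells.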

How the data were processed

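The authors deposited raw read counts per miRNA feature, 1 column for each of the 3 libraries, neither normalized nor pooled. Trimmomatic 0.36, BWA 0.7.12-r1039, SAMtools 1.3.1-9 and bcl2fastq 1.8.4 are listed in the submitters' processing notes. The build, the annotation and how reads were counted are not given in the sources used. Names carry no arm and may pool related sequences, so the mir-146 feature may hold more than 1 gene's reads. The members and lists were chosen with earlier results of these data known.

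CPM and shares use the library total. TMM factors (0.940, 0.991 and 1.07) came from edgeR 4.0.16 and size factors from DESeq2 1.42.0, under R 4.3.3. The chi-square test with Benjamini-Hochberg adjustment used features that averaged at least 10 counts, and ranges and pair spreads those that averaged at least 100. The chi-square step was tried on simulated counts with counting error and set fold changes, but no other spread between libraries. That trial therefore cannot show how such spread affects the test. Exact 95% intervals (scipy 1.17.1, Python 3.11.15) cover the counting error of reads only. Reads carry no molecular identifiers, so copies of 1 molecule could not be told apart, and the intervals may be too narrow. Named features were the members, their 3 nearest features, their neighbours in mean level and the listed blood and marker miRNAs with a mean count of at least 100. mir-147, mir-184 and mir-187 fall outside this rule and were named after their values were seen. Alternatives were other scalings, denominators, count minimums, a pseudocount and each library left out.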

Additional observations from a re-analysis of the deposited data

How the results depend on the processing

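No paired analysis was possible because there is a single group of libraries. Of 125 alternative values, 120 kept their direction and moved by less than the SD between libraries or, for counts, by no more than 1.5 times. Leaving out 1 of 3 libraries cannot move a mean by as much as that SD. For such means the size limit was therefore met in advance and says nothing about how stable they are. When the total left out mir-204, the leukocyte share was 0.570% against 0.479%, since the denominator shrank. The erythroid share was 0.0821% to 0.169% and the leukocyte share 0.468% to 0.489% with each library left out, and the log2 ratio of mir-451 to mir-144 was 1.08 to 1.56. The log2 ratio of erythroid to leukocyte counts was -2.62 to -1.61, of mir-142 to mir-146 -1.31 to -0.34 and of mir-223 to mir-142 -1.72 to -1.43. Features that passed the chi-square test numbered 108 to 123 and members 6 to 7, against 129 and 7. Features with a range over 2-fold numbered 20 to 36 against 53 and members 3 to 4 against 6, fewer libraries giving a smaller range. The comparisons of library pairs on other scales were added after the data were seen. Depth limits mir-150 most.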

Other observations

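Features of similar mean level set the scale of the members. mir-146 stood between mir-16 (2554 ± 276 CPM, SD, n = 3) and mir-11 (2503 ± 642 CPM), and mir-142 between the neural mir-128 (1769 ± 655 CPM) and mir-15 (1387 ± 308 CPM). mir-451 stood between mir-3596 (980 ± 199 CPM) and the sensory organ miRNA mir-182 (891 ± 139 CPM), mir-223 between mir-140 of cartilage (572 ± 54.4 CPM) and mir-214 (563 ± 85.2 CPM), and mir-144 between the muscle miRNA mir-1 (336 ± 148 CPM) and pred_484 (320 ± 201 CPM). mir-155 stood between mir-821 (113 ± 43.3 CPM) and mir-46 (87.7 ± 48.6 CPM), and mir-150 between mir-217 (15.5 ± 4.63 CPM) and mir-129 (12.9 ± 2.58 CPM). None of these 14 neighbours was above or below its member in all 3 libraries, so the mean ranks of the members, from 30 of 324 for mir-146 to 114 for mir-150, are approximate.

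The predicted feature pred_484 adjoined mir-144 in mean level, with 233, 550 and 178 CPM in libraries 1, 2 and 3, from 1168, 4703 and 1706 counts. It was the nearest feature to mir-451 by pattern, but not a close one, at an SD of the log2 ratio of 0.46. It was not among the 3 features nearest to mir-144 by pattern, and it carries no miRNA name. This link was noticed after the values were seen and was not tested.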
